A study of Mus musculus with 18 samples.

Results

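Smoc1 and Foxn4 are 2 of the 38355 genes counted in cortical tissue of mouse embryos that lack the transcription factors Dmrt3, Dmrt5 or both. They were chosen by their read counts in the knockouts, as the genes called higher in embryos lacking both factors than in embryos lacking Dmrt5 alone. That difference is therefore given below as a description and not as a finding. The tissue was cortex dissected from C57BL/6 embryos at E12.5 (E for embryonic day), and every embryo group shares that background strain and age. The libraries were 4 from wild-type embryos (WT), 5 of Dmrt3 KO (Dmrt3-/-), 4 of Dmrt5 KO (Dmrt5-/-) and 5 of the double KO (Dmrt3-/-;Dmrt5-/-). The labels give no description of the alleles, and the origin of each library (embryo or litter) is not labelled, so p-values measure the spread between these libraries only. The gene that the labels call Dmrt5 has the current symbol Dmrta2.

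Smoc1 encodes a secreted, calcium-binding matrix protein of the SPARC family that antagonises bone morphogenetic protein (BMP) signalling and is needed for eye and limb development. BMPs bind paired receptors, which act through SMAD proteins on targets such as the Id and Msx genes. In the dorsal telencephalon BMPs come mainly from the midline, where they pattern the cortical hem and the choroid plexus. Foxn4 encodes a forkhead transcription factor best known from retinal progenitors, where it favours amacrine and horizontal cells, and from spinal cord progenitors of V2 interneurons, where it activates the Notch ligand gene Dll4. Dmrt3 and Dmrt5 carry the DM domain, a zinc-binding DNA-binding domain, and are expressed in progenitors of the dorsal telencephalon, whose dorsal identity needs them.

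Smoc1 (ENSMUSG00000021136) is a protein-coding gene at chr12:81026808-81186414 on the plus strand of GRCm38, the assembly also called mm10. Foxn4 (ENSMUSG00000042002) is a protein-coding gene at chr5:114254164-114273807 on the minus strand. The bases just upstream of the Foxn4 start are shown because Foxn4 had the largest double KO change of the pair and is the member with an entry in the RefSeq promoter table (GRCm38.p6). They span chr5:114273808-114274011 on the minus strand and read, 5′ to 3′ and without capitals because no searched motif was found in them:
Foxn4: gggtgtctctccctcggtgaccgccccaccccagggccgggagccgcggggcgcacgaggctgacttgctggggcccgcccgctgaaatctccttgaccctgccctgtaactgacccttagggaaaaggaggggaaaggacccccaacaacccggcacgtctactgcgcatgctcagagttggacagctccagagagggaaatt
These 204 bases are 64.7% G or C, against a median of 51.5% over the 32851 promoter windows of the same length. A core of the sites bound by DM-domain proteins, ACANTGT, had 0 matches on either strand, and 5.53% of all windows hold it. The E-box CANNTG, bound by basic helix-loop-helix factors, also had 0 matches, while 59.7% of all windows hold it. No match says only that these letters are not in this window.

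Levels are normalised read counts scaled to library size (CPM), computed from the deposited counts. The 18 libraries held between 19602718 and 33072896 counts, and both members passed the filter on low counts that left 16236 genes for testing. The targeted transcripts followed the labels. Dmrt3 stood at 56.9 ± 4.1 CPM for WT (SD, n = 4) and at 0.308 ± 0.0654 for Dmrt3 KO (n = 5). Dmrta2 stood at 194 ± 29.7 CPM for WT and at 10.7 ± 9.64 for Dmrt5 KO (n = 4), where replicate 1 held 25.1 CPM. Pallial markers, genes of dorsal telencephalon, were abundant: 10 of them summed to 2331 to 2661 CPM for WT and 1268 to 1534 CPM for the double KO. In each mutant genotype 1 library stood apart by its mesenchyme markers (Dmrt3 KO replicate 5, Dmrt5 KO replicate 4 and double KO replicate 4), and WT replicate 4 was the highest of its genotype. In this bulk tissue fewer cells of a type and less RNA per cell cannot be told apart.

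Smoc1 was readily detected in all 18 libraries. In WT it stood at 22.1, 34.4, 27.3 and 22.2 CPM in replicates 1 to 4. In Dmrt3 KO it stood at 29.2, 29.2, 29.0, 28.3 and 32.8 CPM in replicates 1 to 5. All 5 Dmrt3 KO libraries lay within the WT range.

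In Dmrt5 KO the Smoc1 level was 47.4, 49.96, 46.9 and 44.3 CPM in replicates 1, 2, 4 and 5. All 4 were above every WT library, as 4.39% of the tested genes were in Dmrt5 KO. They were also above every Dmrt3 KO library, and the share of genes above both was not computed. Double KO libraries held Smoc1 at 74.9, 87.9, 74.4, 78.0 and 81.2 CPM in replicates 1 to 5, above all 13 other libraries, as 0.191% of the tested genes were. The lowest double KO library (74.4 CPM) stood above the highest Dmrt5 KO library (49.96 CPM), a lack of overlap that 0.407% of the tested genes showed in that direction.

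As means over libraries, Smoc1 went from 26.5 ± 5.80 CPM for WT (SD, n = 4) and 29.7 ± 1.79 for Dmrt3 KO (n = 5) to 47.1 ± 2.33 for Dmrt5 KO (n = 4) and 79.3 ± 5.54 for the double KO (n = 5). The order of the levels was thus WT, Dmrt3 KO, Dmrt5 KO, double KO. WT and Dmrt3 KO overlapped, while Dmrt3 KO and Dmrt5 KO, and Dmrt5 KO and the double KO, did not. WT was the most variable genotype, with a coefficient of variation of 21.9% against 6.03%, 4.94% and 6.99% in Dmrt3 KO, Dmrt5 KO and the double KO.

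Foxn4 was scarce. In WT it stood at 0.47, 0.53, 0.38 and 0.38 CPM in replicates 1 to 4, from 14, 10, 9 and 13 counts. In Dmrt3 KO it stood at 0.66, 1.64, 1.35, 0.79 and 0.34 CPM in replicates 1 to 5, from 15, 37, 35, 23 and 8 counts. Replicates 2 and 3 of Dmrt3 KO were the highest of that genotype, and replicate 5 lay below every WT library.

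In Dmrt5 KO the Foxn4 level was 0.89, 1.08, 0.72 and 1.17 CPM in replicates 1, 2, 4 and 5, from 18, 26, 18 and 39 counts. All 4 lay above the highest WT library, as 4.39% of the tested genes did, and inside the Dmrt3 KO range. Double KO libraries held Foxn4 at 2.05, 3.24, 2.94, 2.64 and 4.49 CPM in replicates 1 to 5, from 42, 71, 66, 62 and 115 counts. All 5 were above the highest library of the other genotypes, which was Dmrt3 KO replicate 2 at 1.64 CPM, a place that 0.191% of the tested genes shared. Their lack of overlap with Dmrt5 KO was seen for 0.407% of the genes.

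The Foxn4 means were 0.440 ± 0.0758 CPM for WT (SD, n = 4), 0.956 ± 0.527 for Dmrt3 KO (n = 5), 0.964 ± 0.202 for Dmrt5 KO (n = 4) and 3.07 ± 0.904 for the double KO (n = 5). The single KO means were next to each other and their libraries overlapped, as did those of WT and Dmrt3 KO, while Dmrt5 KO and the double KO did not overlap. The coefficient of variation in Dmrt3 KO was 55.1%, where counting error alone would give 20.6%. In WT it was 17.2%, where counting error alone would give 29.5%, so the WT spread was within counting error.

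**Figure D1:**
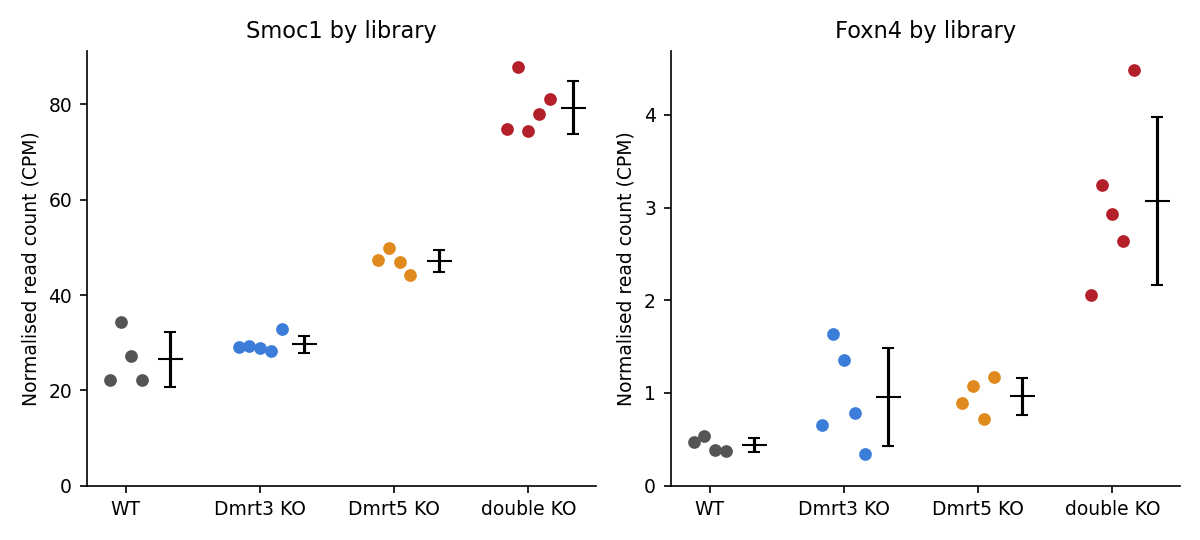
Normalised read count (CPM, vertical axis) of Smoc1 (left) and Foxn4 (right) in each of the 18 libraries, by genotype; the bars give the mean and SD. For both genes the 5 double KO libraries lie above all others, from 74.4 CPM for Smoc1 and from 2.05 CPM for Foxn4, and for Foxn4 the Dmrt3 KO libraries spread from 0.34 to 1.64 CPM.

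Per length, the genes differed far more in level than in response. Scaled to library size and transcript length (RPKM), Smoc1 averaged 7.58 in WT, 8.50 with Dmrt3 lost, 13.5 with Dmrt5 lost and 22.7 with both lost. The corresponding Foxn4 levels were 0.131, 0.284, 0.286 and 0.911 RPKM. Among 16067 genes with a length, the Smoc1 level ranked at percentile 59.0 in WT and 82.5 in the double KO. The Foxn4 level ranked at percentile 2.96 in WT and 24.0 in the double KO, so that Foxn4 was still among the less abundant transcripts where it was highest. None of the 3543 stretches of 50 bases in the Smoc1 transcripts and none of the 3443 in those of Foxn4 occurs in transcripts of another gene. Reads of that length need not be shared with a paralog.

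The comparison of Dmrt3 KO with WT did not enter the choice of the members and can be tested. Smoc1 was 1.12-fold higher, which is 0.17 on the log2 scale (SE 0.12, adjusted p = 0.654 in edgeR's quasi-likelihood test). Foxn4 was 2.18-fold higher, which is 1.12 on the log2 scale (SE 0.37, adjusted p = 0.505 in edgeR), with 4 of 5 Dmrt3 KO libraries above the highest WT library. Before the adjustment over all tested genes, p in edgeR was 0.182 for Smoc1 and 0.00791 for Foxn4. In the two-sided exact permutation test of log2 CPM, whose smallest possible p is 0.00794, p was 0.214 for Smoc1 and 0.103 for Foxn4. Neither member was called at an adjusted p under 0.05, nor were most genes, as 0.0123% of the tested genes were called in this comparison. Missing the threshold does not show that the levels were alike, and the Foxn4 estimate rests on 8 to 37 counts per library.

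Markers of neighbouring tissues also varied within Dmrt3 KO. The summed level of 12 markers of the diencephalon, the brain region behind the telencephalon, was 68.8 to 119 CPM for WT and 99.8, 197, 145, 87.1 and 119 CPM in Dmrt3 KO replicates 1 to 5. It was highest in replicate 2 and lowest in replicate 4. Foxn4 stood at 0.66, 1.64, 1.35, 0.79 and 0.34 CPM in these replicates. The sum of 13 subpallial markers, genes of the ventral telencephalon, was 1121, 1621, 1422, 1417 and 1117 CPM in the same replicates, highest in replicate 2 and lowest in replicate 5. The sum of 5 markers of the medial ganglionic eminence, a ventral part of it, was 113, 328, 127, 60.0 and 146 CPM, highest in replicate 2 and lowest in replicate 4. None of the 3 lists had a gene called by edgeR in Dmrt3 KO against WT (4 diencephalic markers and none of the others at an unadjusted p under 0.05). Over all 16236 tested genes 0.0123% were called in that comparison, and 1163 had an unadjusted p under 0.05. In the double KO the diencephalic sum was 107 to 139 CPM. With the diencephalic score as a covariate, a setting chosen after seeing the data, the Foxn4 log2 fold change in Dmrt3 KO against WT was 0.76, with an adjusted p of 0.575 from edgeR. No such fit was made with the ventral markers. The part of diencephalic or ventral tissue in this difference was not tested.

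All comparisons with Dmrt5 KO or double KO libraries share samples with the comparison that picked the members, so their sizes are given without a test. In Dmrt5 KO against WT the log2 fold change was 0.83 (SE 0.13, 1.78-fold) for Smoc1 and 1.14 (SE 0.39, 2.2-fold) for Foxn4. In this comparison 0.339% of the tested genes were called higher. In the double KO against WT it was 1.58 (SE 0.12, 2.99-fold) for Smoc1 and 2.80 (SE 0.38, 6.98-fold) for Foxn4, and 2.42% of the tested genes were called higher. Against Dmrt3 KO the double KO values were 1.42 (SE 0.11) and 1.68 (SE 0.32). Foxn4 thus had the larger fold and Smoc1 the smaller relative error in each of these comparisons.

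The picking comparison itself, the double KO against Dmrt5 KO, gave a log2 fold change of 0.75 (SE 0.12, 1.68-fold) for Smoc1 and 1.66 (SE 0.35, 3.17-fold) for Foxn4. In it 0.0123% of the tested genes were called higher, and these 2 genes are the members, while 0.32% were called lower. The genes just outside the threshold, in order of p, were the vesicular zinc transporter gene Slc30a3 (log2 fold change 0.90), the urea transporter gene Slc14a1 (1.37) and the lipid raft gene Rftn1 (0.46). Further out came Six3 (0.48), a forebrain and eye factor at 158 CPM for the double KO. Smoc1 was on the called side under each of the 15 other settings and left-out libraries tried in this comparison. Foxn4 was on it under 4 of the 15, with log2 fold changes between 1.31 and 1.78 throughout. The membership of Foxn4 therefore depends on the threshold more than that of Smoc1 does.

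**Figure D2:**
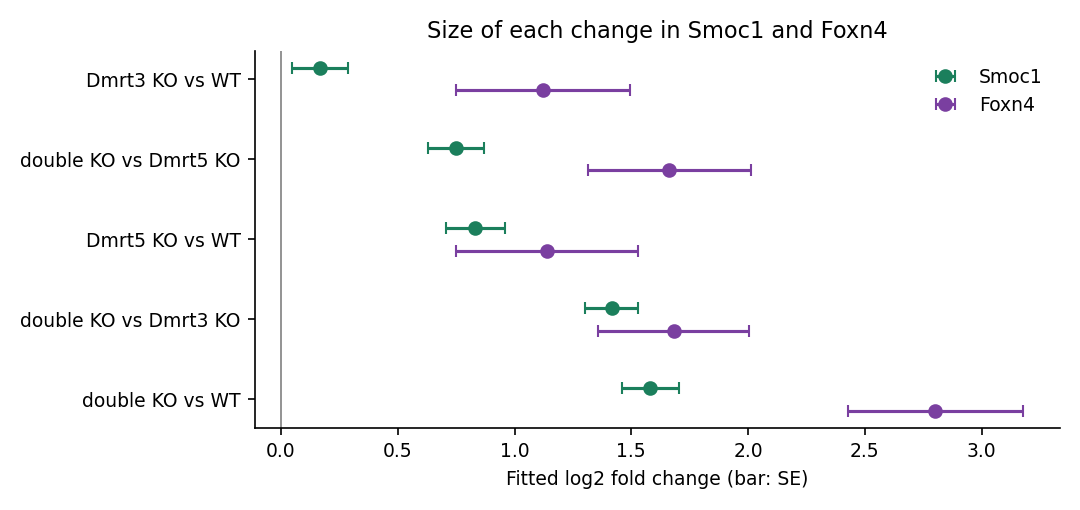
Fitted log2 fold change (horizontal axis) with its SE for Smoc1 and Foxn4 in each comparison between genotypes. The Dmrt3 KO against WT values, 0.17 and 1.12, are the ones independent of how the genes were picked; the values reach 1.58 and 2.80 in the double KO against WT.

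The double KO change can be set beside the sum of both single KO changes on the log2 scale. For Smoc1 the single changes add up to 0.997 and the double KO change was 1.58, which leaves 0.58 (SE 0.17). For Foxn4 they add up to 2.26 and the double KO change was 2.80, which leaves 0.54 (SE 0.51). Both differences share the double KO libraries with the picking comparison and have no test. The Foxn4 difference was about the size of its error. It was 0.24 with the mesenchyme score as a covariate and 0.38 with a gene length slope, and it ran from 0.33 without Dmrt3 KO replicate 5 to 0.81 without Dmrt3 KO replicate 2, with 0.36 without double KO replicate 5.

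No paralog of the members was called in any comparison, nor were most tested genes. Smoc2, the other SMOC gene, stood at 3.83 ± 3.48 CPM for WT, 4.76 ± 6.41 for Dmrt3 KO, 3.16 ± 5.27 for Dmrt5 KO and 3.02 ± 6.15 for the double KO. Its high libraries were those with the most mesenchyme markers, among them double KO replicate 4 at 14.0 CPM, and it was not called in any of the 4 comparisons counted from here on (Dmrt3 KO, Dmrt5 KO and double KO against WT, and double KO against Dmrt5 KO). Foxn2 stood at 13.1, 8.90, 8.55 and 11.8 CPM and Foxn3 at 10.5, 5.16, 4.16 and 7.92 CPM for WT, Dmrt3 KO, Dmrt5 KO and the double KO, and neither was called. Foxn1, the thymic epithelium factor, had 1 count in double KO replicate 1 and none in the other libraries, and was not tested.

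Within the SPARC family, Smoc1 aside, no gene was called by edgeR in any of the 4 comparisons, out of 7 tested. Over all tested genes 0.0123% were called in Dmrt3 KO against WT, and 0.339% higher and 0.69% lower in Dmrt5 KO against WT. The shares were 2.42% higher and 3.81% lower in the double KO against WT, and 0.0123% and 0.32% in the double KO against Dmrt5 KO. At such shares a count of 0 in a short list says little about its genes, here and in the lists below. At an unadjusted p under 0.05 there were 0, 1 and 2 in the Dmrt3 KO, Dmrt5 KO and double KO comparisons with WT and 0 between the double KO and Dmrt5 KO, and DESeq2 called none. The matrix protein gene Sparc had a log2 fold change of -0.31 in the double KO against WT, and its level ran from 363 ± 54.4 CPM for WT to 293 ± 105 for the double KO. The proteoglycan genes Spock1, Spock2 and Spock3 had 0.56, 0.70 and 0.72 in that comparison. The family median, Smoc1 included, was 0.13 against 0.01 over all tested genes.

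Of the other secreted BMP antagonists, 12 of 14 were tested and none was called in any of the 4 comparisons by edgeR. An unadjusted p under 0.05 was seen for 5 in the double KO against WT, where DESeq2 called 1 lower; in the other comparisons both counts were 0. Noggin (Nog), which sequesters BMPs, stood at 23.7 ± 6.60 CPM for WT and 31.8 ± 7.15 for the double KO. Chordin (Chrd), which does the same, stood at 11.4 ± 2.88 and 12.6 ± 2.57 CPM. The list medians were -0.01, 0.09, 0.12 and 0.03 in Dmrt3 KO, Dmrt5 KO and the double KO against WT and in the double KO against Dmrt5 KO, where those of all genes were 0.00, -0.02, 0.01 and 0.01. Without double KO replicate 4, the library rich in mesenchyme, 3 antagonists were called lower in the double KO against WT.

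Several BMP ligand genes fell in the double KO. Of the 12 tested ligand and receptor genes 5 were called lower and none higher in the double KO against WT, with a median log2 fold change of -0.82, while 3.81% of all tested genes were called lower. The 5 were ligands, and no receptor gene was called. Gdf5 fell from 2.71 ± 0.155 to 0.646 ± 0.355 CPM (log2 fold change -2.07, SE 0.32, adjusted p = 0.000591 in edgeR). Bmp6 fell from 5.03 ± 0.925 to 0.737 ± 0.657 CPM (-2.76, SE 0.51, adjusted p = 0.00274 in edgeR), and Bmp7 from 45.2 ± 4.80 to 14.9 ± 9.34 CPM (-1.60, SE 0.34, adjusted p = 0.00766 in edgeR). Bmp2 and Bmp5 were the others, chosen for mention as the remaining called ligands. Leaving out 1 library at a time gave 4 to 6 called lower, with 6 without double KO replicate 4. With only the compared genotypes in the fit 2 were called lower, and Bmp7 was not among them (adjusted p = 0.0856 in edgeR); with the mesenchyme score as a covariate 3 were.

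In the other 3 comparisons edgeR called no ligand or receptor gene. The counts at an unadjusted p under 0.05 were 3 in Dmrt3 KO against WT, 6 in Dmrt5 KO against WT and 3 in the double KO against Dmrt5 KO, and DESeq2 called 0, 1 and 0. The Bmp4 level was 9.97 ± 3.92, 11.4 ± 5.73, 6.42 ± 4.13 and 4.24 ± 6.90 CPM for WT, Dmrt3 KO, Dmrt5 KO and the double KO, with a spread in the double KO as large as the level. These ligands are known to be made at the dorsal midline and in mesenchyme. The markers of cortical hem and choroid plexus summed to 407 to 483 CPM for WT and 30.0 to 77.3 CPM for the double KO. In the double KO against WT 9 of 9 of them were called lower, where 3.81% of all tested genes were. The part of that tissue in the ligand levels was not tested.

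Among 13 SMAD genes and BMP target genes, 4 were called lower and none higher in the double KO against WT, where 3.81% of all tested genes were called lower. The list median was -0.77 on the log2 scale. Id4, a helix-loop-helix inhibitor, fell from 425 ± 20.5 to 232 ± 22.4 CPM (log2 fold change -0.87, SE 0.10, adjusted p = 1.77e-05 in edgeR). Smad9, a BMP signal transducer, fell from 1.56 ± 0.818 to 0.225 ± 0.256 CPM (adjusted p = 0.00631 in edgeR), and both calls held without any 1 library. Id3 fell from 111 ± 77.6 to 40.0 ± 18.9 CPM (adjusted p = 0.0321 in edgeR), a call that was lost without WT replicate 2 (adjusted p = 0.178), WT replicate 3 (0.0585), double KO replicate 1 (0.0642) or double KO replicate 2 (0.0853). The count was 2 without any of those same libraries and 7 without double KO replicate 4, and 2 with only the compared genotypes in the fit or with the mesenchyme score. The fourth was Smad6, an inhibitory SMAD gene.

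In Dmrt5 KO against WT Id4 (308 ± 21.5 CPM, adjusted p = 0.033 in edgeR) and Smad9 (0.233 ± 0.196 CPM, adjusted p = 0.0403) were called lower, where 0.69% of all genes were. The Id4 call was lost without any 1 of the 8 libraries (adjusted p 0.0562 to 0.124). The Smad9 call was kept in 2 of those 8 fits, without WT replicate 2 or Dmrt5 KO replicate 4 (adjusted p 0.0252 to 0.169 over the 8). No member of this list was called by edgeR in Dmrt3 KO against WT (0 at an unadjusted p under 0.05, 0 by DESeq2) or in the double KO against Dmrt5 KO (2 at an unadjusted p under 0.05, 1 by DESeq2).

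Of 17 genes linked to Foxn4 in retina and spinal cord 12 were tested, and Ptf1a, Atoh7, Lhx3, Lhx4 and Vsx1 were too scarce. In the double KO against WT the list median was -0.01 on the log2 scale. Neurod1, a neuronal differentiation factor, fell from 35.3 ± 5.99 CPM for WT to 7.67 ± 1.46 for the double KO (log2 fold change -2.20, SE 0.19, adjusted p = 1.76e-06 in edgeR).

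Dll4, the Notch ligand gene that Foxn4 activates elsewhere, stood at 8.88 ± 1.65 CPM for WT, 9.21 ± 1.31 for Dmrt3 KO, 8.16 ± 1.91 for Dmrt5 KO and 7.57 ± 1.99 for the double KO. It was not called, with a log2 fold change of -0.23 in the double KO against WT. Ptf1a, which acts downstream of Foxn4 in the retina, was at 0 in all WT libraries and reached at most 0.391 CPM for the double KO. Prox1, a horizontal cell factor, stood at 20.2 ± 6.47 CPM for WT and 42.2 ± 21.05 for the double KO and was not called by edgeR.

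From Dmrt5 KO to the double KO, where Foxn4 was 3.17-fold higher, edgeR called 2 of the 12 tested Foxn4-linked genes, both lower. Of all tested genes 0.32% were called lower in that comparison. Neurod1 fell from 27.4 ± 2.97 to 7.67 ± 1.46 CPM (adjusted p = 5.57e-05 in edgeR). Neurod4, a proneural gene of the same family, fell from 13.2 ± 1.08 to 5.22 ± 2.10 CPM (adjusted p = 0.022 in edgeR), a call lost without Dmrt5 KO replicate 1, 4 or 5 or double KO replicate 1, 2 or 3 (adjusted p up to 0.0906). In Dmrt5 KO against WT Neurod4 (adjusted p = 0.0226 in edgeR) was called higher, a call lost without any 1 library other than WT replicate 2 (adjusted p up to 0.0992). In Dmrt3 KO against WT no gene of the list was called by edgeR (1 at an unadjusted p under 0.05, 0 by DESeq2).

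**Figure D3:**
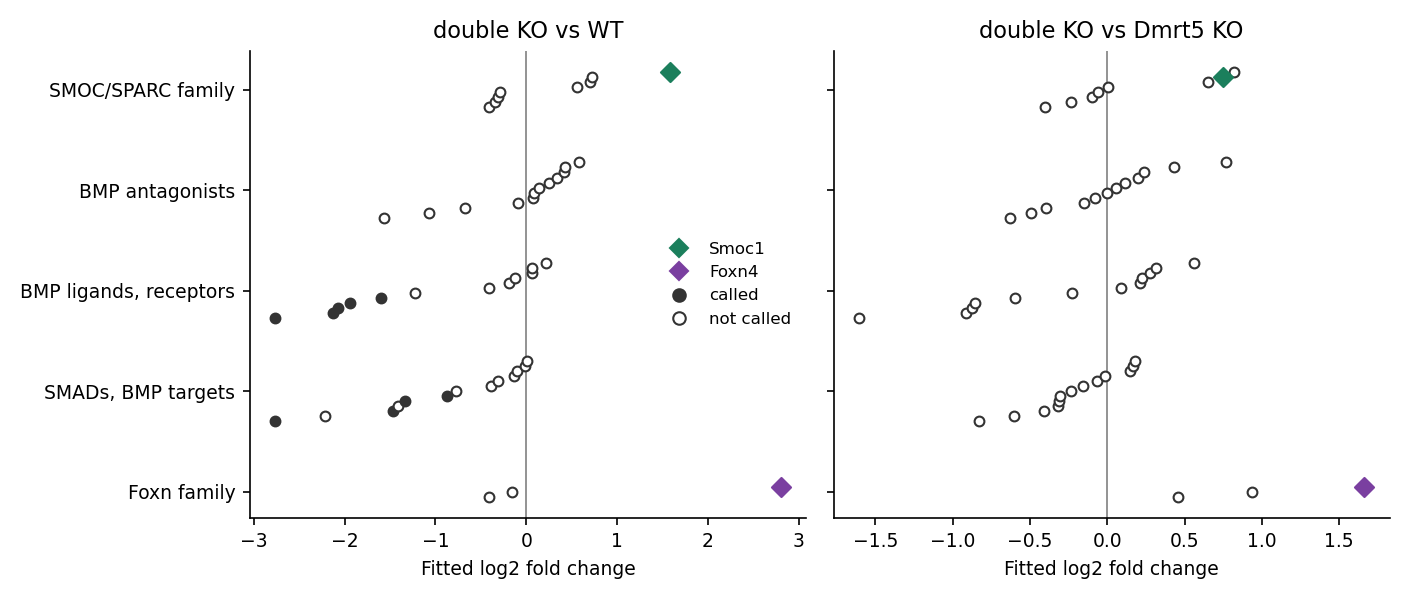
Fitted log2 fold change (horizontal axis) of each tested gene in 5 lists of the SMOC, BMP and Foxn families, in the double KO against WT (left) and against Dmrt5 KO (right); filled circles were called at an adjusted p under 0.05, and diamonds mark Smoc1 and Foxn4. The called BMP ligands and BMP targets lie left of zero in the double KO against WT, while Smoc1 at 1.58 and Foxn4 at 2.80 lie to the right of every other gene of their lists.

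Markers of other tissues moved with the genotypes as well. The 13 subpallial markers summed to 1032 to 1390 CPM for WT, 1117 to 1621 in Dmrt3 KO, 1851 to 2235 in Dmrt5 KO and 1975 to 3428 in the double KO. By their medians the genotypes had the same order as for Smoc1. Of these markers 10 were called higher in the double KO against WT, where 2.42% of all tested genes were, and 5 in Dmrt5 KO against WT, where 0.339% were. None was called by edgeR in the double KO against Dmrt5 KO (8 at an unadjusted p under 0.05, 1 by DESeq2). The count of 5 became 2 without WT replicate 1 or 4 or Dmrt5 KO replicate 1, 2 or 5, and 3 without WT replicate 2, while the count of 10 stayed at 10 without any 1 library. The lowest double KO library was replicate 4, at 1975 CPM of subpallial markers, and it held 78.0 CPM of Smoc1 and 2.64 CPM of Foxn4, both inside the range of the other double KO libraries. The 5 markers of the medial ganglionic eminence summed to 82.9 to 172 CPM for WT, 60.0 to 328 in Dmrt3 KO, 262 to 392 in Dmrt5 KO and 270.4 to 681 in the double KO. Of them 4 were called higher in the double KO against WT, 4 or 5 without any 1 library and 0 with the mesenchyme score as a covariate. In Dmrt5 KO against WT edgeR called 0 (5 at an unadjusted p under 0.05, 4 by DESeq2 and 4 with the replicate block). The part of subpallial tissue or identity in the member levels was not tested.

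Of the 10 pallial markers 8 were called lower and 1 higher in the double KO against WT, where 3.81% and 2.42% of all tested genes were. In Dmrt5 KO against WT 3 were called lower, where 0.69% of all tested genes were. The first counts were the same without any 1 library. The 3 became 2 without WT replicate 1, 2 or 3 or Dmrt5 KO replicate 2, 4 or 5.

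Eye is the tissue best known for both genes. The 8 eye markers summed to 16.2 to 21.9 CPM for WT, 10.4 to 16.5 in Dmrt3 KO, 3.63 to 5.89 in Dmrt5 KO and 2.74 to 5.24 in the double KO. Most of the WT sum was 1 gene, Dct, at 14.0 ± 2.54 CPM for WT and 0.398 ± 0.206 for the double KO. The photoreceptor factor gene Crx and the pigment enzyme gene Tyr were too scarce to be tested. Both had 0 counts in all double KO libraries, and Crx also had 0 counts in all Dmrt3 KO libraries. The list did not move 1 way: of the 6 tested markers 4 had a positive log2 fold change in the double KO against WT, with a median of 0.37. In that comparison 2 were called lower, where 3.81% of all tested genes were. The 5 markers of oligodendrocyte precursors, in which Smoc1 is also known, summed to 79.3 to 114 CPM for WT and 69.5 to 138 CPM in Dmrt3 KO. They summed to 126 to 154 CPM in Dmrt5 KO and 108 to 228 CPM in the double KO. Olig1 and Olig2 were called higher in the double KO against WT, where 2.42% of all tested genes were. The list median was 0.01, the same as over all genes, with Sox10 at 0.01, Cspg4 at -0.17 and Pdgfra at -0.59. With only the compared genotypes in the fit neither Olig gene was called (adjusted p = 0.137 and 0.0679 in edgeR). With the mesenchyme score as a covariate Olig2 was not called (adjusted p = 0.0511 in edgeR).

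Mesenchyme markers varied most between libraries, from 729 to 2352 CPM for WT, 544 to 2648 in Dmrt3 KO, 402 to 1635 in Dmrt5 KO and 27.7 to 2009 in the double KO. The library with the most of them in each genotype (WT replicate 4, Dmrt3 KO replicate 5, Dmrt5 KO replicate 4 and double KO replicate 4) had the least Foxn4 of its genotype in WT (0.376 CPM, next to 0.381 in replicate 3), in Dmrt3 KO (0.345) and in Dmrt5 KO (0.717), and the second lowest in the double KO (2.64). For Smoc1 it was the highest of its genotype in Dmrt3 KO and not in the others. Leaving out any 1 library from the double KO against WT gave log2 fold changes of 1.50 to 1.73 for Smoc1 and 2.63 to 2.92 for Foxn4. With a mesenchyme score as a covariate the Foxn4 value was 2.299 in place of 2.80. The double KO library with the least mesenchyme, replicate 5 at 27.7 CPM, was the one with the most Foxn4, 4.49 CPM. The part of mesenchyme in the Foxn4 levels was not tested further. Endothelial markers summed to 240 to 338 CPM for WT and 146 to 325 in the double KO.

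The genes with the profile most like that of Smoc1 over the 18 libraries, by Pearson's r of log2 CPM, were Six3 (r = 0.97), Th (0.96), Slc30a3 (0.95), Depdc7 (0.94) and Syt13 (0.93). They were taken from the 12798 genes whose log2 CPM averaged 1 or more, of which 18 had r above 0.9. The libraries of a genotype share its mean, so most of this likeness is between genotypes. Within genotypes r was 0.57 for Six3, 0.81 for Th, 0.23 for Slc30a3, 0.62 for Depdc7 and 0.30 for Syt13. Th, the tyrosine hydroxylase gene, stood at 9.39 ± 4.31 CPM for WT, 11.8 ± 2.38 for Dmrt3 KO, 27.3 ± 6.15 for Dmrt5 KO and 45.7 ± 10.4 for the double KO. Six3 stood at 56.5 ± 7.12, 62.2 ± 6.83, 114 ± 9.31 and 158 ± 21.9 CPM in the same order. The most opposite profile was that of Fzd9, a Wnt receptor gene (r = -0.97), which stood at 35.2 ± 6.06, 26.4 ± 4.20, 16.8 ± 2.12 and 8.56 ± 1.32 CPM.

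Smoc1 was 1 of 10 tested genes, 0.0616%, with every double KO library above every Dmrt5 KO library and every Dmrt5 KO library above all WT and Dmrt3 KO libraries. Six3, Th, Syt13 and Rftn1 were among the other 9. Foxn4 was not, since its Dmrt3 KO and Dmrt5 KO libraries overlapped.

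For Foxn4 the closest profiles were those of Gm5532 (r = 0.92), the ephrin receptor gene Epha10 (0.91), Slc30a3 (0.89), Fam189a1 (0.88) and Rftn1 (0.88), and 2 of 12799 candidates had r above 0.9. Within genotypes r was 0.74 for Gm5532, 0.86 for Epha10, 0.48 for Slc30a3, 0.82 for Fam189a1 and 0.35 for Rftn1. Epha10 stood at 1.46 ± 0.134 CPM for WT, 2.11 ± 1.14 for Dmrt3 KO, 2.82 ± 0.531 for Dmrt5 KO and 4.24 ± 1.50 for the double KO, and it shared with Foxn4 the wide spread within Dmrt3 KO. The most opposite profile was that of Tdrp (r = -0.88). Slc30a3 was on both lists of closest genes, at 2.12 ± 0.327, 2.89 ± 0.476, 5.15 ± 0.879 and 9.64 ± 2.19 CPM for WT, Dmrt3 KO, Dmrt5 KO and the double KO. Between Smoc1 and Foxn4 themselves r was 0.84 over the 18 libraries and -0.01 within genotypes, so that no relation between their levels was seen within genotypes.

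**Figure D4:**
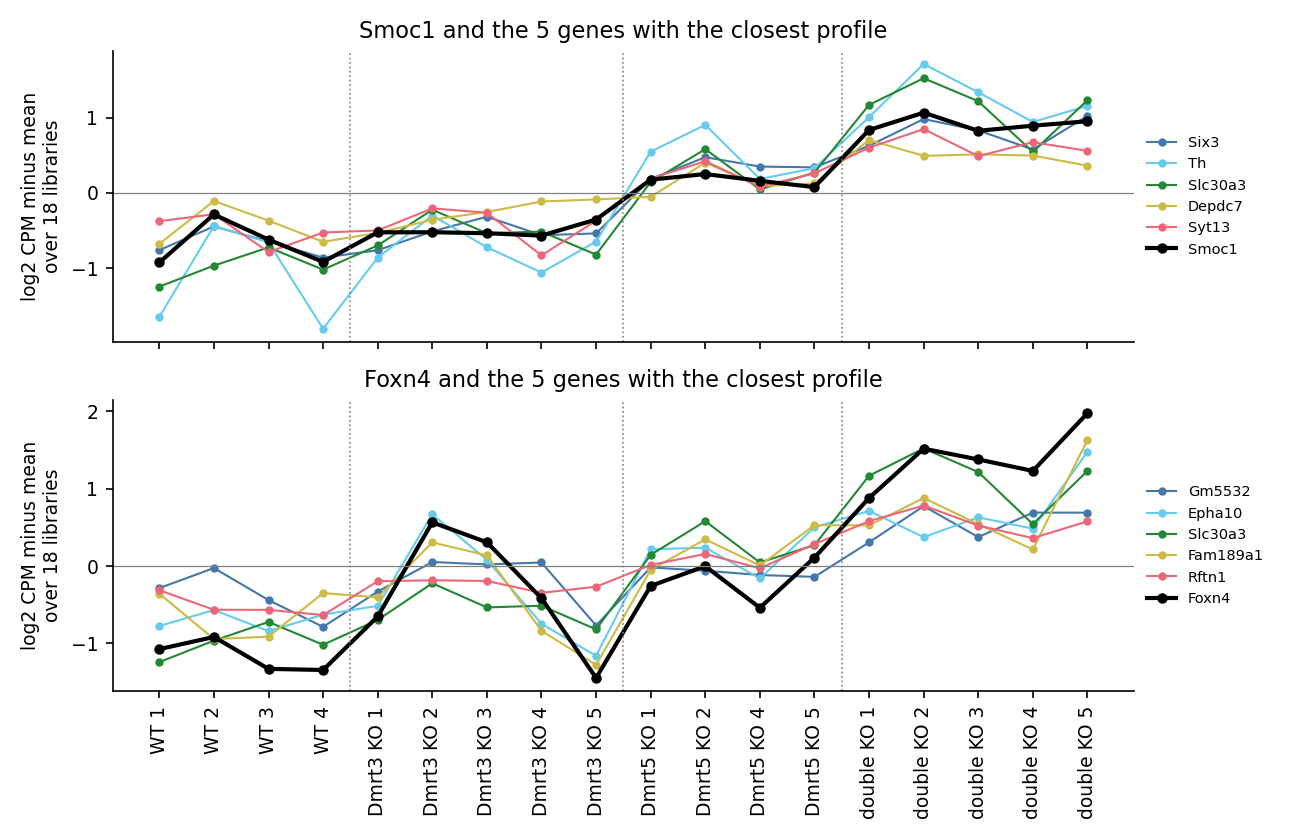
Deviation of log2 CPM from the mean of the 18 libraries (vertical axis) for Smoc1 (top, black) and Foxn4 (bottom, black) with the 5 genes of the closest profile (colours), by library. The Smoc1 set climbs from WT to the double KO, and the Foxn4 set includes genes that share its high Dmrt3 KO replicates 2 and 3 and low replicate 5.

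The genes around the members on the chromosomes were read as well. Within 500 kb of Smoc1 31 genes are annotated and 18 were tested, and edgeR called none in any of the 4 comparisons (2, 1, 1 and 0 at an unadjusted p under 0.05 in Dmrt3 KO, Dmrt5 KO and the double KO against WT and in the double KO against Dmrt5 KO, with 0, 0, 1 and 0 called by DESeq2). Over all 16236 tested genes 1163, 1835, 2869 and 764 had such an unadjusted p. In each direction at most 3.81% of all tested genes were called, so a count of 0 of 18 says little about this region. Without WT replicate 1 edgeR called 1 lower in the double KO against WT, and with the gene length slope 1 higher and 5 lower, a setting under which edgeR called 3170 genes in all. The nearest tested genes were Srsf5, a splicing factor gene ending 76301 bp before Smoc1, and Slc8a3, a sodium-calcium exchanger gene on the opposite strand. The end of Slc8a3 lies 11501 bp past the end of Smoc1, and its start lies 306 kb from the Smoc1 start. The log2 fold changes of Srsf5 and Slc8a3 in the double KO against WT were 0.03 and 0.51. The microRNA gene Mir3067 lies inside Smoc1 on the same strand, and the library kit does not mark strand.

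Within 500 kb of Foxn4 27 genes are annotated and 22 were tested. Its nearest tested neighbours were Acacb, an acetyl-CoA carboxylase gene 3403 bp away (log2 fold change -0.29 in the double KO against WT), and Myo1h, an unconventional myosin gene 15359 bp away (-0.73), and neither was called. The gene Fam222a was called higher in Dmrt5 KO against WT (log2 fold change 0.87, adjusted p = 0.0109 in edgeR) and in the double KO against WT (1.21, adjusted p = 9.18e-05). It starts 294 kb from the Foxn4 start. Fam222a is named, after its values were seen, because it was the neighbour called in the main fit. Of all tested genes, 0.339% were called higher in the first of these comparisons and 2.42% in the second. In the double KO against WT DESeq2 called 2 neighbours higher, as did edgeR without WT replicate 1 or double KO replicate 4. With the gene length slope edgeR called 3 neighbours higher, out of 3170 genes called in all. Each other setting gave 1. No neighbour of Foxn4 was called by edgeR in Dmrt3 KO against WT (0 at an unadjusted p under 0.05) or in the double KO against Dmrt5 KO (1 at an unadjusted p under 0.05), nor by DESeq2 in either.

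**Figure D5:**
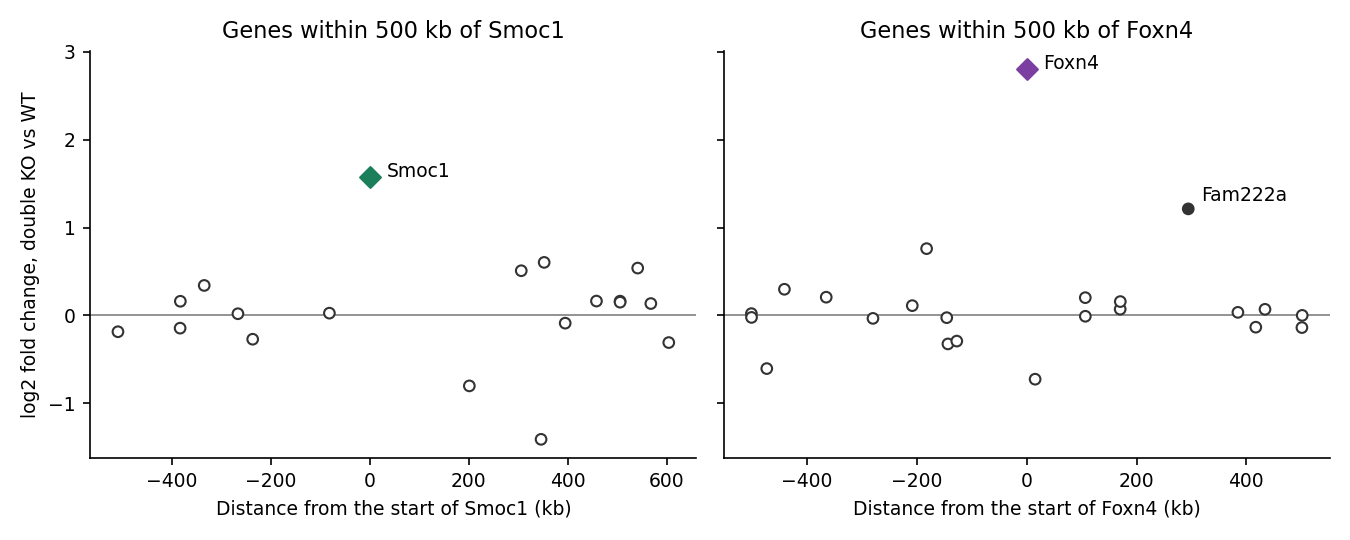
Log2 fold change in the double KO against WT (vertical axis) of the tested genes within 500 kb of Smoc1 (left) and Foxn4 (right), by the distance between gene starts in kb (horizontal axis); filled circles were called at an adjusted p under 0.05. Smoc1 at 1.58 and Foxn4 at 2.80 stand above all tested neighbours, of which Fam222a at 1.21 was called.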

How the data were processed

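The authors deposited unnormalised counts of reads, 1 per Ensembl gene in each library. The submitters' processing notes list STAR 2.3.0e, featureCounts 1.4.6-p1, CASAVA 1.8.2, DESeq2 1.8.2, bcl2fastq, FastQC 0.10.1 and the build mm10, giving no role for any of them. Per the labels' protocols, libraries were made with a TruSeq kit that does not mark strand. Neither the annotation release nor the strand setting is given in the sources used here. Symbols and positions came from GENCODE M21 by gene identifier, which matched 36602 of 38355 genes; the others held 0.397% of counts. The 5 summary entries of each file were 0.

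Counts were analysed with edgeR 4.0.16 (R 4.3.3): filterByExpr (16236 genes), trimmed-mean scaling and a quasi-likelihood fit with 1 mean per genotype over all 18 libraries. CPM and log2 CPM (prior count 2) were computed from the deposited counts. A gene was called at a Benjamini-Hochberg adjusted p under 0.05 over all tested genes. The SE was derived from the fold change and its F statistic. Counting error is the Poisson error of the mean count per library and covers sampling of reads only. The fit was tested on simulated data. Alternatives were DESeq2 1.42.0, no filter, a replicate block, only the compared genotypes, a mesenchyme score or gene length slope as covariate, and leaving out each library. The main fit did not pair libraries by replicate number, and the labels do not say whether these numbers link libraries across genotypes.

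The members and lists were chosen with earlier results of these data known. Named were the members, the targeted genes, the paralogs, up to 3 called genes per list and comparison, the 5 closest profiles per member, genes called higher in the double KO against Dmrt5 KO, and the nearest neighbours within 500 kb. Other genes are given as counts or named after their values were seen (the genes just outside the threshold, Sparc and the Spock genes, Nog, Chrd, Bmp2, Bmp4, Bmp5, Smad6, Dll4, Ptf1a, Prox1, Fam222a, Crx, Tyr and the oligodendrocyte precursor markers). Other called genes of the marker lists are not named. Some genes of the Foxn4-linked list, called ones among them, are not reported here.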

Additional observations from a re-analysis of the deposited data

Results flagged for a closer look

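In 11 of the 68 groups of libraries examined, 1 library lay far from the others of its genotype by Dixon's criterion, where chance gives about 1 in 20. Smoc1 in Dmrt3 KO was highest in replicate 5, at 32.8 CPM against 28.3 to 29.2 CPM in the other 4 libraries. The same library had 2648 CPM of mesenchyme markers against 544 to 978 CPM in the others.

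Dmrt5 KO replicate 4 had 1635 CPM of mesenchyme markers against 402 to 564 CPM, and 11.04 CPM of Smoc2 against 0.207 to 0.989 CPM. Double KO replicate 4 had 2009 CPM of mesenchyme markers against 27.7 to 331 CPM, 14.0 CPM of Smoc2 against 0 to 0.831 CPM, and 325 CPM of endothelial markers against 146 to 182 CPM. The Smoc1 and Foxn4 levels of these libraries lay inside the range of their genotype or at its low end: 46.9 and 0.72 CPM in the first, 78.0 and 2.64 CPM in the second.

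Dmrt3 KO replicate 2, the library of its genotype with the most Foxn4, had the fewest endothelial markers, 192 CPM against 273 to 301 CPM. Dmrta2 in Dmrt5 KO replicate 1 stood at 25.1 CPM against 4.31 to 6.94 CPM in the other libraries. The sum of eye markers in Dmrt5 KO replicate 5 was 3.63 CPM against 5.59 to 5.89 CPM. Foxn1 stood at 0.0489 CPM in double KO replicate 1, a single read count, and at 0 in the other double KO libraries.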

How the results depend on the processing

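Smoc1 and Foxn4 kept the direction of their difference under all settings tried in the comparisons of each mutant with WT and of the double KO with each single KO. The single KOs were not compared with each other. Neither was called in Dmrt3 KO against WT under any of them, with adjusted p from 0.251 to 1.0 without 1 library. Without 1 library, the Smoc1 log2 fold change was 0.08 to 0.32 in Dmrt3 KO against WT, 0.74 to 0.98 in Dmrt5 KO against WT and 0.71 to 0.78 in the double KO against Dmrt5 KO. The Foxn4 values were 0.85 to 1.33, 1.03 to 1.26 and 1.49 to 1.78. With the mesenchyme score as covariate Foxn4 in the double KO against WT was 2.299 in place of 2.80. Foxn4's 8 to 115 counts per library limit its precision.

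Counts of called genes depended on the setting more than the members did. In Dmrt3 KO against WT 2 genes were called, 54 with DESeq2, 89 with the length slope and 2 to 6 without 1 library (6 without WT replicate 2, 4 without WT replicate 4). Of these, 1 of 2, 1 of 54 and 1 of 89 were higher. In Dmrt5 KO against WT 167 were called (55 higher), 438 with DESeq2 (210 higher), 89 with only the compared genotypes, 544 with the length slope and 54 to 225 without 1 library, with 54 to 105 without WT replicate 1, 3 or 4 or any Dmrt5 KO library. In the double KO against WT 1012 were called (393 higher), 368 with only the compared genotypes, 422 with the mesenchyme score, 3170 with the length slope (1588 higher) and 727 to 2006 without 1 library, the highest without double KO replicate 4. In the double KO against Dmrt5 KO 54 were called, 112 with DESeq2, 21 with only the compared genotypes, 121 with the length slope and 34 to 79 without 1 library, the lowest without Dmrt5 KO replicate 4.

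Whether equal replicate numbers mark libraries handled together is not labelled, and the correlations, which were of either sign, do not settle it. Of 24 pairs of the same number, 15 had a correlation of deviations over 0.1 (range -0.36 to 0.70). In 16 of 48 matches of a library to another genotype the best one had its own number. With the replicate block, 380 genes were called in Dmrt5 KO against WT (184 higher), and 3, 1231 and 47 in Dmrt3 KO and the double KO against WT and in the double KO against Dmrt5 KO. The block gave Smoc1 0.75 and Foxn4 1.63 in that last comparison.

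Among the uncalled neighbours and paralogs some values changed sign. Srsf5 in the double KO against WT (0.027) was -0.075 with the replicate block, -0.050 with the mesenchyme score, -0.078 with the length slope and -0.15 to 0.20 without 1 library. Slc8a3 in that comparison was -2.0e-05 with the mesenchyme score. Smoc2 was 0.21 in Dmrt5 KO against WT, 1.20 in the double KO against WT and 0.99 in the double KO against Dmrt5 KO with the mesenchyme score. Without 1 library Smoc2 ran from -0.93 to 1.13 in Dmrt3 KO against WT, and in those 3 comparisons from -2.89 to 0.54, from -3.85 to 0.48 and from -3.56 to 2.55. In the double KO against WT Foxn2 ran from -0.45 to 0.21 and Foxn3 from -0.85 to 0.0058 without 1 library, and WT replicate 4 was the library whose removal turned both.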
